A study of Mus musculus with 16 samples.

Results

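Contactins and contactin-associated proteins are cell adhesion molecules of axons, and 9 of their genes were followed here in single sensory neurons of mouse dorsal root ganglia (DRG). The members were the 6 contactins *Cntn1* to *Cntn6* and the contactin-associated genes *Cntnap1*, *Cntnap2* and *Cntnap4*. They were chosen by family membership, with earlier results of these data known, and they are 9 of the 49671 genes listed in both count tables. The family is wider, and 4 other contactin-associated genes were kept as a separate list.

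The cells were profiled with CEL-Seq2, a method that tags one end of each transcript with a unique molecular identifier (UMI). At embryonic day (e) 15.5, 960 tdTomato+ cells of *PvtdTom* embryos, a BAC line in which the parvalbumin promoter drives tdTomato, had been collected by fluorescence-activated sorting into 10 libraries of 96 wells. At postnatal day (p) 1, 576 tdTomato+ cells had been picked by hand into 6 libraries of 96 wells from 3 kinds of animals. In *PvCre; Ai14* mice tdTomato marks every cell that has expressed the *Pv* recombinase, and in *Trpv1Cre; PvFlp; Ai65* mice it marks cells that have expressed both recombinases. The labels give 1 name for the latter, and the methods give separate lines, *Trpv1Cre-Basbaum* and *Trpv1Cre-Hoon*. The labels do not tie a p1 library to a mouse line, nor any library to thoracic or lumbar DRG, so neither was compared. Every cell of both ages carries a parvalbumin-driven allele. Age, mouse line and way of isolation cannot be told apart, because each table holds 1 age.

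A well was used when it held at least 10000 UMIs and at least 100 CPM (counts per 1000000 UMIs) of the sensory neuron markers *Avil* and *Isl1* together. This left 434 of 960 wells (45.2%) at e15.5 and 365 of 576 (63.4%) at p1. Wells were then sorted by summed markers. Proprioceptors needed UMIs of both *Pvalb* and *Runx3* and at least 100 CPM of them together. Their summed proprioceptor markers, which include *Ntrk3*, also had to exceed the mechanoreceptor and the nociceptor sums. They made up 332 wells of 10 libraries at e15.5 (7 to 72 wells per library) and 348 wells of 6 libraries at p1 (11 to 82). At e15.5, 27 mechanoreceptor-like and 25 nociceptor-like neurons, named from marker lists led by *Ntrk2* and *Maf* and by *Scn10a*, remained for comparison. At that age 437 wells of sufficient depth held under 100 CPM of *Avil* and *Isl1* together (non-neuronal). Mechanoreceptor-like and nociceptor-like wells needed at least 500 CPM of their list and 300 CPM of *Avil* and *Isl1* together. At p1 only 8 mechanoreceptor-like wells were found. These limits were set after marker levels had been seen. The *Avil* and *Isl1* sums of 123 wells at e15.5 and 27 at p1 lay within 2-fold of the 100 CPM limit. The *Pvalb* and *Runx3* sums of 35 wells at e15.5 and 9 at p1 lay within 2-fold of theirs. Wells with high connective tissue transcripts (31 at e15.5 and 2 at p1) and wells of no class (19 and 7) were left out of the comparisons.

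Libraries held 3701900 to 9299431 UMIs at e15.5 and 386517 to 8814472 at p1, where replicate 3 was shallow and gave 11 proprioceptors. Proprioceptor wells had a median of 113706 UMIs at e15.5 and 57076.5 at p1. Every proprioceptor library also held glial transcripts. The summed level of 6 glial markers, none of which was at 0, ranged from 153 to 662 CPM over e15.5 libraries and from 136 to 601 CPM over p1 libraries, and 59 and 67 proprioceptor wells reached 500 CPM of it. Its part in the results was not tested beyond leaving those wells out. Libraries were the replicates, and the labels do not say which animals a library came from, so p-values cover the spread between libraries.

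Contactins are immunoglobulin-family proteins held to the outer membrane by a lipid anchor. Contactin-associated proteins span the membrane and pair with them in the same axon. On myelinated fibers Cntn1 and Cntnap1 build the junction that seals the myelin loops beside the node of Ranvier, and Cntn2 and Cntnap2 hold Kv1 potassium channels just outside it. Before myelin forms, contactins act in axon growth, fasciculation and the choice of synaptic partners. Proprioceptors, the afferents of muscle spindles and tendon organs, become some of the most heavily myelinated axons of the body.

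*Cntn1* (chromosome 15, 92051165 to 92341967, + strand) and *Cntn2* (chromosome 1, 132509427 to 132543256, − strand) are placed as in GENCODE M21 on GRCm38. They are shown here by the 250 bases that precede a start annotated in RefSeq (GRCm38.p6). They are the pair of members with the highest Pearson correlation from cell to cell at e15.5, though not by rank correlation, and their levels moved apart between the ages. The window of *Cntn1* is chr15:92050915-92051164, + strand, ahead of the first of its 3 annotated starts, and that of *Cntn2* is chr1:132542941-132543190, − strand. The *Cntn1* window lies just ahead of the GENCODE span of its gene, and the *Cntn2* window lies inside the span of its gene. Each is printed 5′ to 3′.
*Cntn1*: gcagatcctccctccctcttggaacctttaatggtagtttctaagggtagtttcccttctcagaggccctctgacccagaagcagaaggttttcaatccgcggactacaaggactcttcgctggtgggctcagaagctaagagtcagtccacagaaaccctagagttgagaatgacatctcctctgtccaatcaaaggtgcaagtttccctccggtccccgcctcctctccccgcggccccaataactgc
*Cntn2*: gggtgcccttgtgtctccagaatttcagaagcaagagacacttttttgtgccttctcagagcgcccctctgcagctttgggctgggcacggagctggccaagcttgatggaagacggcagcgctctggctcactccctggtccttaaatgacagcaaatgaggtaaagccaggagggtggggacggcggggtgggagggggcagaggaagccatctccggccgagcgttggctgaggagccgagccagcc
Their GC content was 53.6% for *Cntn1* and 61.2% for *Cntn2*, against a median of 52.4% over 32851 promoter windows. Neither window held the RUNX letters TGTGGT or the ETS letters CCGGAAG on either strand, which 14.0% and 6.91% of all windows held. Windows were found for 7 of the 9 members. UMIs counted at the transcript end do not show which start was used.

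The other members are also protein-coding genes of GENCODE M21. Chromosome 6 holds *Cntnap2* (45059357 to 47304213, + strand), *Cntn3* (102162655 to 102573101, − strand), *Cntn6* (104492790 to 104863406, + strand) and *Cntn4* (105677660 to 106699310, + strand). *Cntn5* lies on chromosome 9 (9660891 to 10904775, − strand), *Cntnap1* on chromosome 11 (101170523 to 101190724, + strand) and *Cntnap4* on chromosome 8 (112570043 to 112882717, + strand). Their spans run from 20202 bases for *Cntnap1* to 2244857 for *Cntnap2*.

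*Cntnap2*, *Cntn2* and *Cntn1* led the family in e15.5 proprioceptors. *Cntnap2* had 376 ± 33.7 CPM (mean ± SD, n = 10 libraries), *Cntn2* 259 ± 52.0 and *Cntn1* 201 ± 18.9. *Cntnap4*, a neurexin-like protein known from synapses, followed at 95.6 ± 35.7 CPM, then *Cntnap1* at 45.8 ± 6.04. Levels of different genes are counts of molecules and were not divided by gene length. The contactins linked to axon growth and synapse choice were lower, with *Cntn4* at 32.9 ± 15.1 CPM and *Cntn5* at 21.7 ± 4.77. *Cntn3* and *Cntn6* were near the limit of detection, at 2.76 ± 1.79 and 1.08 ± 0.836 CPM. Neighbors in this order overlapped in their library values, except that *Cntnap4* lay above *Cntnap1* and *Cntn5* above *Cntn3* in every library.

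At p1 *Cntn1* stood level with *Cntnap2*, at 405 ± 84.7 and 404 ± 64.5 CPM (n = 6 libraries). *Cntn2* had 168 ± 29.8 CPM, *Cntnap1* 118 ± 10.6, *Cntnap4* 61.6 ± 25.4 and *Cntn4* 27.9 ± 5.19. *Cntn3* at 13.0 ± 1.84 and *Cntn5* at 13.0 ± 8.04 CPM were equal, and *Cntn6* remained lowest at 2.09 ± 1.35. In this order *Cntnap2* lay above *Cntn2*, and *Cntnap1* above *Cntnap4*, without overlap of libraries. *Cntn3* also lay above *Cntn6* in every library, and the other neighbors overlapped.

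The share of proprioceptors with a UMI showed the same order. It was taken after each well had been thinned to 10000 UMIs, and every well used was deep enough. *Cntnap2* was detected in 93.4% of wells at e15.5 and 96.3% at p1, and *Cntn1* in 78.0% and 96.3%. *Cntn2* was found in 81.3% and 75.3%, *Cntnap4* in 50.9% and 40.8%, and *Cntnap1* in 34.3% and 56.3%. *Cntn4* was found in 25% and 21.6% and *Cntn5* in 16.3% and 14.4%. In the non-neuronal wells, thinned alike from a median of 26755 UMIs, these 7 genes were found in 2.97% (*Cntn5*) to 18.3% (*Cntn2*) of wells. For *Cntn3* the e15.5 share was 3.31% (exact 95% interval 1.67 to 5.85%) and for *Cntn6* 0.301% (0.00763 to 1.67%). Both were below the non-neuronal shares of 5.03% and 2.52%. Those wells hold other cells, with a median of 28732 CPM of connective tissue markers, so their shares do not measure technical background. *Cntn3* reached 11.8% (8.59 to 15.6%) at p1, and *Cntn6* 1.44% (0.468 to 3.32%). The intervals cover counting error only.

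In proprioceptors the paranodal pair *Cntn1* and *Cntnap1* and the contactin *Cntn3* were higher at p1 than at e15.5, *Cntn2* was lower, and *Cntnap2* differed little. UMIs were summed per library and tested in edgeR by quasi-likelihood, and p-values were adjusted over 13877 genes by Benjamini and Hochberg. The 8 members that passed the filter on low counts gave 4 higher and 1 lower at an adjusted p under 0.05, on a background of 30.7% of all genes called higher and 32.1% lower. The family's share of calls was thus close to that of all genes, 62.8%. Fewer cells of a kind and less RNA per cell cannot be told apart in such sums.

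*Cntnap1*, the partner of Cntn1 at the paranode, ran from 35.2 CPM (median 47.4) to 53.0 CPM over the e15.5 libraries. At p1 the lowest, median and highest libraries had 102, 116 and 130 CPM. The ages did not overlap, and the fitted difference was 1.56 ± 0.09 on the log2 scale (± SE, 2.95-fold, edgeR adjusted p = 1.89e-11). *Cntnap1* overlaps *Plekhh3* and *Ccr10* on the other strand, and no source used here says whether the counting used strand. Their own sums were 331 and 83 UMIs at e15.5 and 271 and 39 at p1, against 1819 and 3186 for *Cntnap1*.

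*Cntn1* ranged from 165 CPM (median 198) to 236 CPM at e15.5 and from 296 CPM (median 422) to 510 CPM at p1. Every p1 library was above every e15.5 library, with a difference of 1.21 ± 0.10 (2.32-fold, edgeR adjusted p = 4.01e-09). *Cntn3* went from 0.701 CPM (median 2.79) to 5.88 CPM at e15.5 and from 10.6 CPM (median 13.1) to 15.5 CPM at p1. These ranges did not meet either. Its difference of 2.25 ± 0.28 was the largest of the 8 members tested (4.77-fold, edgeR adjusted p = 6.83e-07), from a base near the limit of detection. *Cntn1*, *Cntn3* and *Cntnap1* were the 3 members whose libraries did not overlap between ages, all higher at p1, against 7.42% of tested genes that were higher without overlap, 19.6% lower and 27.0% in either direction. Their calls held in edgeR and DESeq2 and without any 1 of the 16 libraries.

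*Cntn2*, also known as TAG-1 and partner of Cntnap2, had 175 CPM in its lowest e15.5 library, a median of 270 and a highest value of 338. At p1 these were 127, 173 and 201 CPM, so the p1 libraries filled the lower part of the range. The difference was −0.41 ± 0.14 (1.33-fold lower, edgeR adjusted p = 0.0168). The call was lost without p1 replicate 1 (adjusted p = 0.0593) or p1 replicate 6 (0.0526).

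*Cntnap2* spanned 312 to 429 CPM (median 375) at e15.5 and 314 to 472 CPM (median 405) at p1, nearly the same range. The fit called it higher by 0.32 ± 0.09 (1.25-fold, edgeR adjusted p = 0.00438). The call was lost with no filter on low counts (0.23, adjusted p = 0.104) and with library totals in place of TMM factors. The median of all genes was −0.03 with TMM factors and −0.26 with library totals, and on totals 3054 genes were called higher and 6074 lower, in place of 4264 and 4453. With totals the difference of *Cntnap2* was 0.10 (adjusted p = 0.345), that of *Cntn2* −0.64 (0.00042) and that of *Cntnap4* −0.76 (0.0133). The differences of *Cntn1*, *Cntn3* and *Cntnap1* kept their calls on totals (adjusted p at most 2.33e-06).

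*Cntnap2* also needs care as a count. Within its span, 24 features annotated on the same strand held 13382 UMIs in e15.5 proprioceptors against 14717 for the gene itself. At p1 they held 9985 against 11356. Gene and features together had 743 ± 142 CPM at e15.5 and 765 ± 79.1 at p1 (log2 difference 0.06, exact two-sided permutation p = 0.700).

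*Cntnap4* had 55.7 to 167 CPM (median 92.2) at e15.5 and 30.9 to 96.3 CPM (median 61.8) at p1. Its difference of −0.53 ± 0.25 did not pass (edgeR adjusted p = 0.0664). It passed without any 1 of e15.5 replicates 6, 7 and 8 or p1 replicates 1 and 3 (adjusted p 0.0297 to 0.0492). *Cntn5* differed by −0.34 (0.279) and *Cntn4* by −0.04 (0.909), with intervals of −0.86 to 0.18 and −0.55 to 0.47. *Cntn6* did not pass the filter on low counts.

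**Figure D1:**
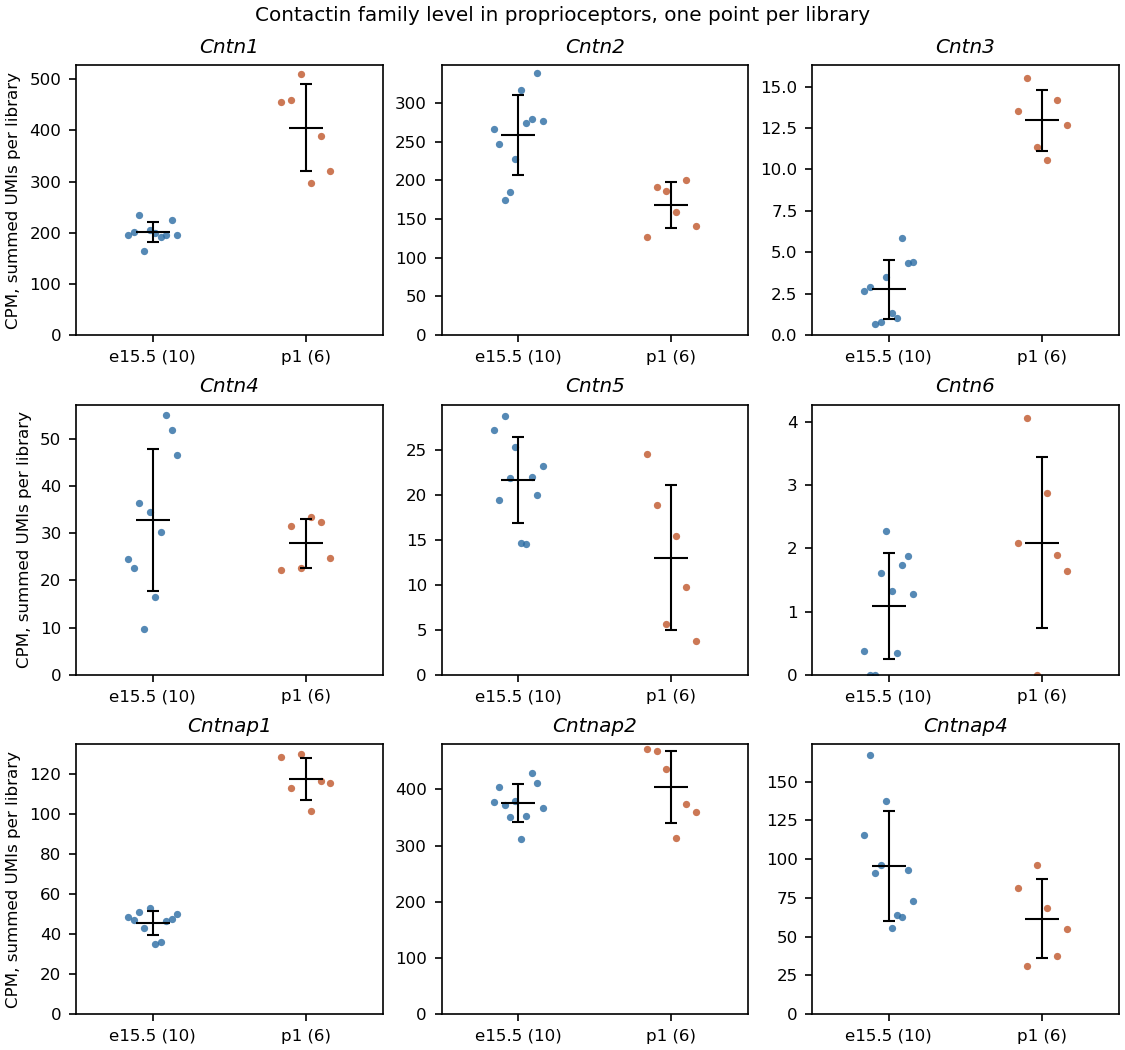
CPM of the 9 members in proprioceptors, 1 point per library, with the mean and SD (horizontal and vertical black lines) of 10 libraries at e15.5 and 6 at p1; each panel has its own linear axis from 0. Only *Cntn1*, *Cntn3* and *Cntnap1* have p1 points entirely above the e15.5 points.

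Transcripts of the proteins that work beside the contactins at the node, paranode and juxtaparanode were mostly higher at p1. Of 17 listed genes, 14 were called higher and 1 lower by the same edgeR fit (30.7% and 32.1% of all genes), with a median log2 difference of 1.43 against −0.03 over all genes. *Lgi3*, a secreted ligand of Adam22 and Adam23, went from 33.3 ± 8.60 to 128 ± 17.3 CPM (log2 difference 2.17). *Kcna2*, a Kv1 channel held by the Cntn2 and Cntnap2 pair, went from 43.9 ± 26.5 to 150 ± 28.6 CPM (1.93). *Scn8a*, the main sodium channel of mature nodes, went from 74.1 ± 8.78 to 240 ± 35.4 CPM (1.89). *Nrcam*, an adhesion molecule of the L1 group found at nodes, was the one called lower, from 36.0 ± 6.34 to 14.8 ± 4.25 CPM (−1.01). *Kcnab1* and *Lgi4* did not pass.

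Of 12 ligands and co-receptors of contactins, 5 were called higher and 2 lower, with a median of 0.18. That is 7 of 12, near the 62.8% of all genes called in either direction. *Tnr*, the matrix protein tenascin-R and a ligand of Cntn1, rose from 8.43 ± 4.53 to 43.3 ± 16.3 CPM (2.46). *Chl1*, an L1-group ligand of Cntn6, rose from 4.97 ± 4.69 to 11.3 ± 5.87 CPM (1.45), and *Aplp2*, a relative of the amyloid precursor protein, from 118 ± 24.5 to 240 ± 38.2 CPM (1.27). *Aplp1* (−0.62) and the phosphatase gene *Ptpra* (−0.52) were the ones called lower. The 2 other contactin-associated genes that could be tested both rose, *Cntnap3* from 1.57 ± 1.44 to 8.05 ± 3.09 CPM (2.54) and *Cntnap5a* from 33.5 ± 14.8 to 68.4 ± 14.9 CPM (1.23).

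**Figure D2:**
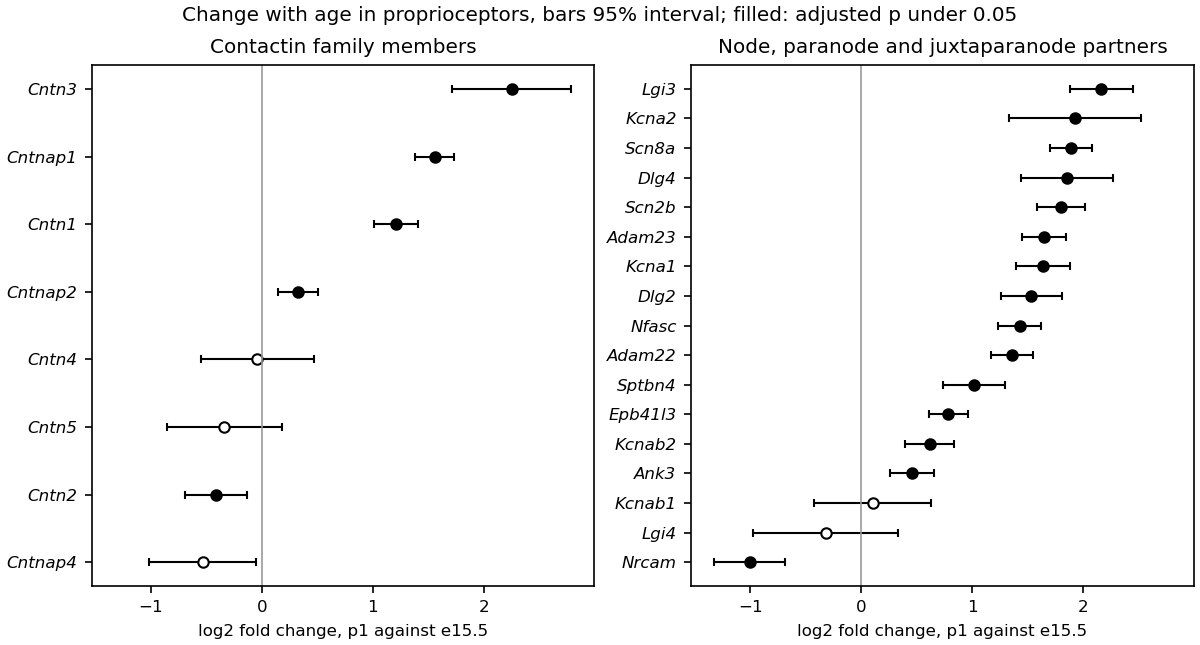
Log2 fold change of p1 against e15.5 proprioceptors for the 8 members tested (left) and 17 partners at the node, paranode and juxtaparanode (right); bars are 1.96 SE (95% interval) and filled points have an edgeR adjusted p under 0.05. The partners run from *Nrcam* at −1.01 to *Lgi3* at 2.17, with 14 filled points above 0.

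Among e15.5 sensory neurons, *Cntnap2* and *Cntnap4* were higher in proprioceptors than in mechanoreceptor-like neurons, and *Cntn4*, *Cntn5* and *Cntn6* were lower. Sums came from 10 libraries of proprioceptors and from the 5 libraries with at least 3 mechanoreceptor-like wells. The edgeR fit over 13552 genes called 2 of the 9 members higher and 3 lower in proprioceptors, on a background of 6.29% of all genes higher and 6.53% lower (12.8% in all). Sums of 1 library were also compared with the library as a block.

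*Cntnap4* had 27.6, 14.5, 22.6, 0 and 41.1 CPM in the 5 mechanoreceptor-like libraries, all below the lowest proprioceptor library at 55.7. The difference was 1.96 ± 0.40 (3.88-fold, edgeR adjusted p = 0.000702), in the same direction in 5 of 5 libraries. *Cntnap2* had 110, 178, 244, 136 and 281 CPM there, again below every proprioceptor library. It was 1.88-fold higher in proprioceptors (0.91 ± 0.26, edgeR adjusted p = 0.0142), in 5 of 5 libraries, and the call was lost without replicate 1 (0.0567) or 3 (0.0603) and without wells carrying glial markers (0.130).

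*Cntn6* had 0, 7.26, 9.05, 6.50 and 16.2 CPM in mechanoreceptor-like neurons and at most 2.28 CPM in a proprioceptor library. The difference was −2.79 ± 0.65 (6.91-fold lower in proprioceptors, edgeR adjusted p = 0.00313), on 0, 6, 6, 1 and 13 UMIs in those mechanoreceptor-like libraries and 51 over the proprioceptor wells. It was lower in proprioceptors in 4 of 5 libraries. *Cntn5* had 52.4, 38.7, 45.3, 32.5 and 53.5 CPM, above every proprioceptor library. It was lower in proprioceptors by 1.09 ± 0.32 (edgeR adjusted p = 0.0186, or 0.0582 with the library as a block) in 5 of 5 libraries. Its call was lost without replicate 1 (0.0508), 5 (0.0564) or 9 (0.101).

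*Cntn4* had 63.4, 69.0, 89.0, 52.0 and 93.4 CPM in mechanoreceptor-like neurons against 9.71 to 55.1 in proprioceptors. It was lower in proprioceptors by 1.19 ± 0.37 (edgeR adjusted p = 0.0305, or 0.108 with the block) in 5 of 5 libraries, and the call was lost without any 1 of replicates 1, 2, 3, 4, 5, 7 and 9 (0.0577 to 0.120). *Cntn1* was alike in level in both classes, at 206 ± 64.2 CPM in mechanoreceptor-like neurons (−0.10, interval −0.59 to 0.39, edgeR adjusted p = 0.881). *Cntn2* (0.41, interval −0.38 to 1.20), *Cntn3* (−0.20, −1.60 to 1.21) and *Cntnap1* (−0.51, −1.01 to −0.01) did not pass either. The edgeR test did not put *Cntnap1* at an unadjusted p under 0.05, though its interval leaves out 0. At p1 the 6 mechanoreceptor-like wells of replicate 2 gave 81.1 CPM of *Cntn4*, 11.6 of *Cntn5*, 13.9 of *Cntn6*, 215 of *Cntnap2* and 11.6 of *Cntnap4*. The proprioceptors of that library had 31.5, 18.9, 4.07, 468 and 30.9 CPM, so *Cntn5*, on 5 UMIs in the mechanoreceptor-like wells, lay in the opposite order to e15.5. With 1 library there is no test.

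Of the 12 ligands, 1 was called higher in proprioceptors than in mechanoreceptor-like neurons and 4 lower, against 6.29% and 6.53% of all genes. *Chl1* had 4.97 ± 4.69 CPM in proprioceptors and 136 ± 91.2 CPM in mechanoreceptor-like neurons (−4.75, edgeR adjusted p = 7.72e-06). *Nrp1*, the neuropilin that forms a receptor complex with Cntn2 and L1cam, had 14.3 ± 9.95 and 345 ± 148 CPM (−4.54), and *Aplp2* differed by −1.19. *Tnr* had 8.43 ± 4.53 CPM in proprioceptors and no UMI in the 27 mechanoreceptor-like wells, where a count of 0 allows up to 0.773 CPM (edgeR adjusted p = 0.0162, or 0.0589 with the block). *Chl1* (103510586 to 103750211), *Cntn6* and *Cntn4* lie in this order on the + strand of chromosome 6, a proximity noted after their values had been seen. All 3 were called lower in proprioceptors than in mechanoreceptor-like neurons, though the call of *Cntn4* was lost in several fits, as given above. *Cntn3* lies ahead of *Chl1* on the − strand (102162655 to 102573101) and was not called. Its level was higher in proprioceptors in 2 of 5 libraries and lower in 3. Against nociceptor-like neurons only *Chl1* of these genes was called lower, and against non-neuronal wells *Chl1* was lower and *Cntn4* higher.

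Of the 17 partners, on the same background, *Lgi3* was called higher in proprioceptors (0.94) and 4 lower, led by *Kcna2* at 43.9 ± 26.5 against 170 ± 75.5 CPM (−1.97), *Nrcam* (−1.43) and *Adam23* (−0.89). With the library as a block, of these 5 calls only that of *Kcna2* was kept. Without replicate 9, *Nrcam* (edgeR adjusted p = 0.0555) and *Adam23* (0.0530) also missed the threshold, and *Lgi3* kept its call in 4 of the 10 fits that left out a library. *Cntnap5a*, the other contactin-associated gene tested, did not pass (1.95, adjusted p = 0.0702).

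Against nociceptor-like neurons, *Cntnap2* was higher in proprioceptors and *Cntn2* was lower. These were the calls among 9 members, 1 in each direction, on a background of 8.93% of 13552 genes called higher and 7.98% lower (16.9% in all). *Cntn2* had 1049, 680, 758 and 1355 CPM in the 4 nociceptor-like libraries, all above the highest proprioceptor library at 338. The difference was −1.84 ± 0.39 (3.57-fold lower in proprioceptors, edgeR adjusted p = 0.00102), in 4 of 4 libraries. *Cntnap2* had 84.2, 127, 109 and 101 CPM, all below the lowest proprioceptor library at 312. It was 3.65-fold higher in proprioceptors (1.87 ± 0.31, edgeR adjusted p = 4.39e-05), in 4 of 4 libraries. The pair that share a complex at the juxtaparanode thus stood in opposite order by class mean. Proprioceptors had more *Cntnap2* than *Cntn2* on average (376 and 259 CPM), and nociceptor-like neurons had 105 ± 17.9 and 961 ± 307 CPM. The order did not hold in all proprioceptors. In the *Gabrg1*-side wells described below, *Cntn2* had 323 CPM against 212 for *Cntnap2* in replicate 7 and 471 against 468 in replicate 8. It had 473 against 479 in replicate 9 and 307 against 448 in replicate 10.

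The other 7 members did not pass against nociceptor-like neurons, with intervals such as −0.19 to 0.92 for *Cntn1*, −0.61 to 0.62 for *Cntnap1* and −0.55 to 0.89 for *Cntnap4*. *Cntnap4* had 84.5 ± 46.7 CPM there, beside 95.6 in proprioceptors. *Cntn4* had 27.6 ± 7.84 and *Cntn5* 18.5 ± 8.45 CPM. Among the partners, *Kcnab1* (2.60), *Lgi3* (2.0) and *Kcna1* (1.60) were called higher, and *Kcna2* was lower (−1.73). *Kcna2* lost its call without replicate 1 (edgeR adjusted p = 0.0982). Ligands were lower in 4 cases and higher in none, led by *Nrp1* (−4.53), *Chl1* (−4.50) and *Aplp2* (−0.87). *Cntnap5a* did not pass (−0.81, adjusted p = 0.391).

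**Figure D3:**
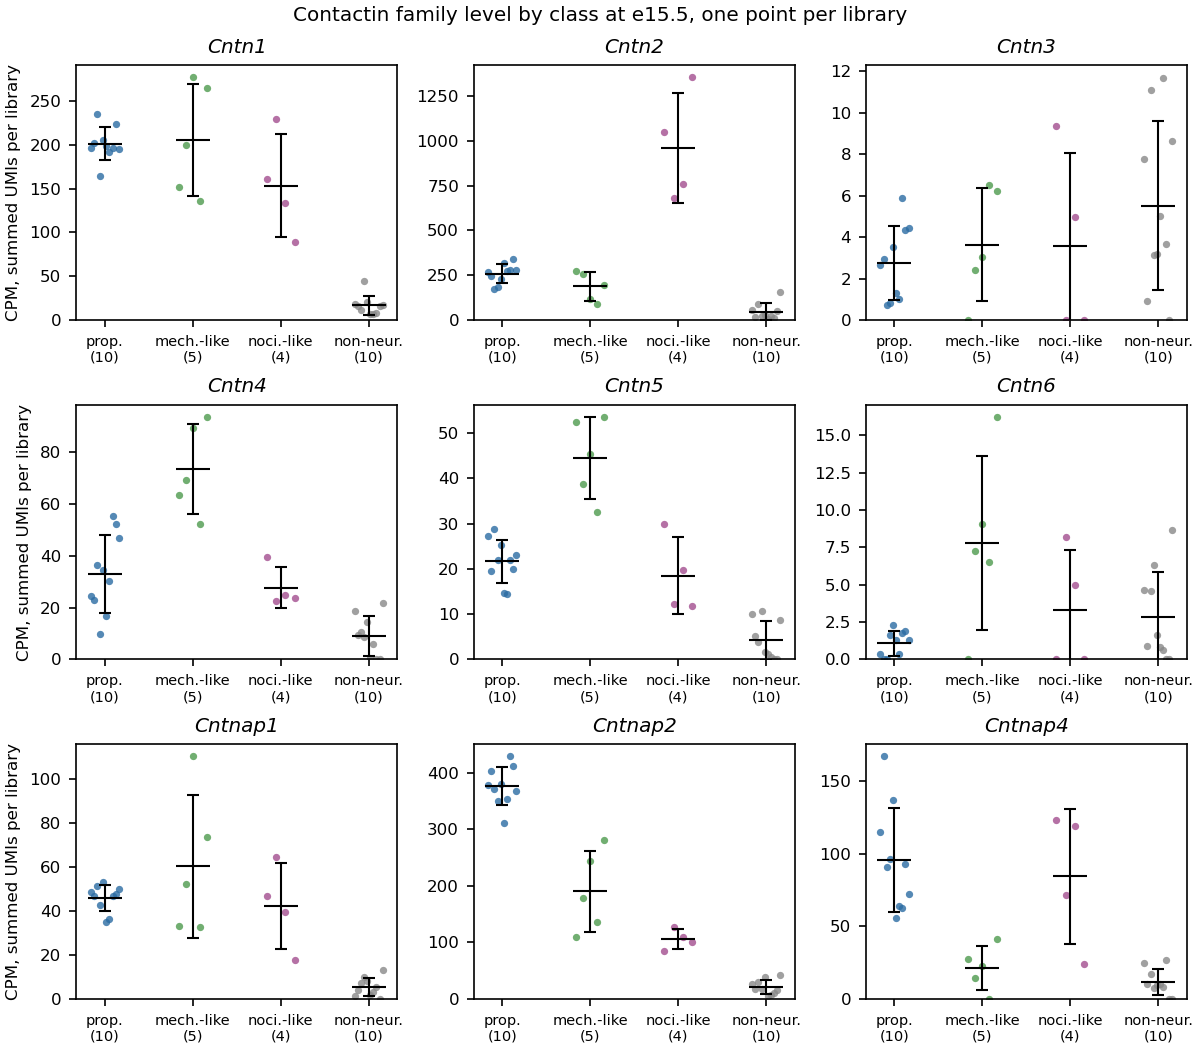
CPM of the 9 members at e15.5 by class, 1 point per library with at least 3 wells (numbers of libraries in brackets), with the mean and SD as black lines, the lower bar ending at 0 where it would pass it; each panel has its own linear axis. *Cntn2* is highest in nociceptor-like neurons, *Cntnap2* in proprioceptors, and *Cntn4*, *Cntn5* and *Cntn6* in mechanoreceptor-like neurons.

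Non-neuronal wells had little of the family. By edgeR, 7 members were called higher in proprioceptors and 1 lower, on a background of 34.4% and 40.0% (74.5% in all). *Cntnap2* was 18.8-fold higher (4.23 ± 0.25, 21.3 ± 12.9 CPM in non-neuronal wells) and *Cntn1* 11.6-fold (3.53 ± 0.25, 16.7 ± 10.8 CPM). *Cntnap1* was higher by 3.09, *Cntnap4* by 2.76, *Cntn2* by 2.72, *Cntn5* by 2.22 and *Cntn4* by 1.95. *Cntn3* was lower in proprioceptors by 0.98 ± 0.43 (edgeR adjusted p = 0.0395), a call lost without replicate 1 (0.0893), 3 (0.119) or 6 (0.0661) and without wells carrying glial markers (0.101). *Cntn6* had 1.08 ± 0.836 CPM in proprioceptors and 2.82 ± 3.02 in non-neuronal wells (−1.12, adjusted p = 0.0754, or 0.0370 with the block and 0.0391 without replicate 8). Partners were higher in 14 of 17 cases, led by *Lgi3* (4.0), *Kcna1* (3.67) and *Kcnab2* (3.43), and *Dlg2* was lower (−1.06, adjusted p = 0.0381, or 0.20 with the block). *L1cam* (2.93), *Tnr* (2.66) and *Aplp1* (2.20) led 4 ligands called higher. *Chl1* (−3.91), *Nrp1* (−3.69) and the tenascin gene *Tnc* (−2.92) led 5 called lower. *Cntnap5a* was higher by 2.43.

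Within proprioceptors, the study uses *Tox* and *Gabrg1* as markers of neurons connected to back and hindlimb muscles. Wells with at least 20 CPM of one and less of the other were compared as a *Tox* side and a *Gabrg1* side, each a range of levels and not a cell type. At e15.5 there were 130 *Tox*-side wells (10 libraries) and 38 *Gabrg1*-side wells, of which 4 libraries gave at least 3. At p1 there were 121 and 86, in 6 and 4 libraries that could be summed. A level within 2-fold of the limit was found in 25 *Tox*-side and 11 *Gabrg1*-side wells at e15.5 and in 33 and 22 at p1. Wells that reached the limit for neither gene (154 at e15.5, 108 at p1) or for both (10 and 33) were left out. At p1 those with neither were shallower, at a median of 32326 UMIs against 74511 and 69015 on the sides. In shallow wells a single UMI passes the limit. The glial sum ran from 26.6 to 1361 CPM (median 604) over *Tox*-side and from 19.8 to 944 CPM (median 214) over *Gabrg1*-side sums at e15.5. There 23.8% of *Tox*-side and 18.4% of *Gabrg1*-side wells carried glial markers. At p1 the medians were 318 and 149 CPM, and the shares of wells 22.3% and 11.6%. The sides thus differed in glial content, and its part in their differences was not tested beyond leaving those wells out.

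*Cntn2* was lower on the *Tox* side at e15.5, the 1 call among 7 members tested, on a background of 1.45% of 10459 genes higher and 1.82% lower (3.27% in all). Its *Gabrg1*-side libraries had 323, 471, 473 and 307 CPM (replicates 7 to 10). The *Tox* side ran from 144 CPM (median 213) to 321 CPM over 10 libraries. The difference was −0.87 ± 0.18 (1.83-fold lower, edgeR adjusted p = 0.00661). Within libraries the *Gabrg1* side was higher in 4 of 4, by least in replicate 7 (323 against 321 CPM). The call was lost with the library as a block (0.151), without wells carrying glial markers (0.170) and without replicate 8 (0.0777) or 9 (0.0726). *Cntn5* was also higher on the *Gabrg1* side in 4 of 4 libraries, at 30.5 ± 15.4 against 15.3 ± 7.22 CPM, and did not pass (−0.97, adjusted p = 0.162, or 0.0197 without replicate 7).

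At p1 none of 8 members tested was called by edgeR, with 3 at an unadjusted p under 0.05 and 0 by DESeq2, on a background of 0.878% of 11042 genes (0.272% higher and 0.607% lower). *Cntn5* had 36.1, 22.5, 11.7 and 13.2 CPM on the *Gabrg1* side (replicates 1, 2, 4 and 5) and 0 to 14.4 CPM (median 2.31) on the *Tox* side. Its difference was −1.59 ± 0.53 (adjusted p = 0.285). *Cntnap4* ran the other way, with 76.5, 31.5, 15.6 and 28.5 CPM on the *Gabrg1* side and 42.6 to 156 CPM (median 71.0) on the *Tox* side. It was higher on the *Tox* side in 4 of 4 libraries (0.81 ± 0.34, adjusted p = 0.501). *Cntn4* differed by −0.69 ± 0.25 (0.363) and *Cntn2* by −0.38 ± 0.21 (0.785).

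The change of the side difference between ages was tested by an interaction term. None of 8 members was called by edgeR, with 0 at an unadjusted p under 0.05 and 0 by DESeq2, against 0.2% of 11477 genes (0.0523% higher and 0.148% lower). The interval for *Cntn2* was −0.09 to 1.05 and for *Cntnap4* −0.18 to 1.63. Among the lists, *Kcna1* (−0.89) and *Ptprg* (−1.08), a phosphatase that binds Cntn3 to Cntn6, were lower on the *Tox* side at e15.5. *Aplp2* (1.26), *App* (0.68) and *Cntnap5a* (1.31, adjusted p = 0.0498) were higher. The call of *Cntnap5a* was kept in 3 of the 10 fits that left out a library, and that of *Kcna1* was lost without replicate 8 or 9 (edgeR adjusted p up to 0.0733). At p1 only *Tnr* was called, higher on the *Tox* side (1.41, adjusted p = 0.0271, or 0.0929 with the block), and it kept its call in 2 of the 6 fits that left out a library.

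**Figure D4:**
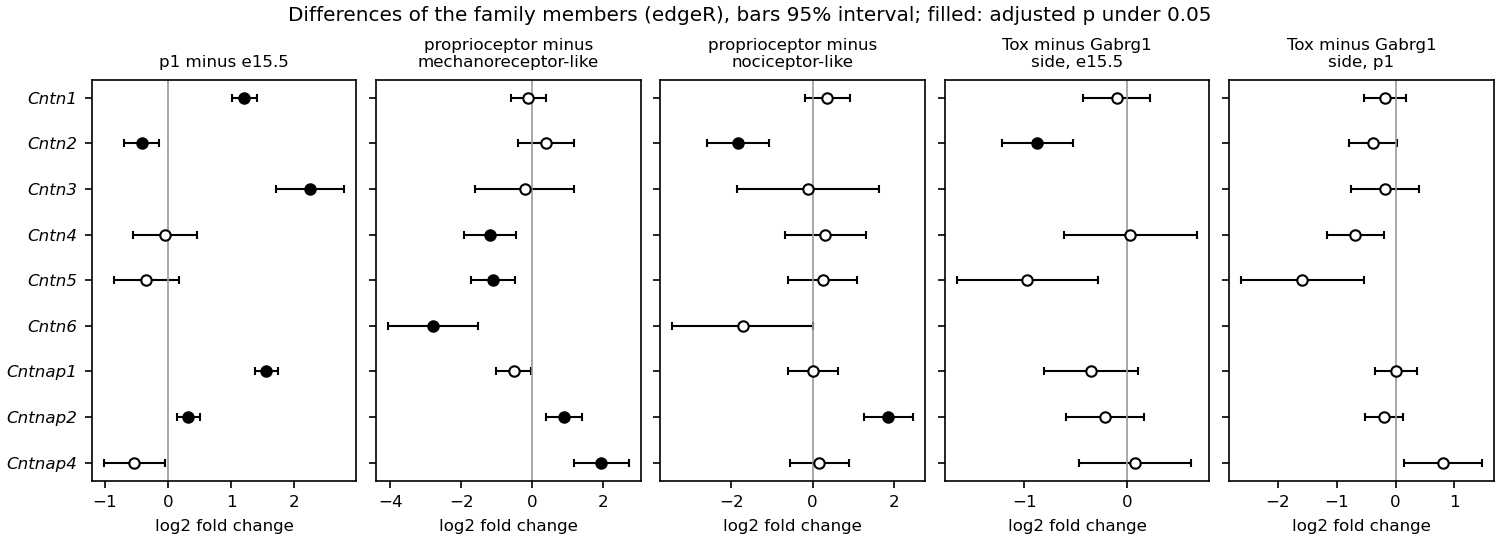
Log2 fold change of each member in 5 comparisons of sums per library, with bars of 1.96 SE (95% interval); filled points have an edgeR adjusted p under 0.05, and a member without a point did not pass the filter on low counts. Of the panels, only the age panel has *Cntn1*, *Cntn3* and *Cntnap1* filled, and the p1 side panel has none filled.

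*Cntnap4* varied widely between single proprioceptors at both ages. Variation was described as overdispersion, the variance beyond counting noise over the squared mean, within libraries and after thinning to 10000 UMIs, with no test. *Cntnap4* had a median of 0.880 over 7 libraries at e15.5 (0.132 to 3.15), and 4.20% of 7784 genes were higher. At p1 it had 0.821 over 5 libraries (−0.05 to 1.10), and 4.58% of 6796 genes were higher. It was 0.741 and 0.883 at 20000 UMIs and 1.01 and 0.791 without thinning. Background medians were 0.061 and 0.130. In unthinned wells of e15.5, *Cntnap4* ran from 9.79 CPM at the 25th percentile through a median of 61.6 to 144 at the 75th and a highest well of 499.

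*Cntn4* had 0.732 at e15.5 (−0.69 to 1.62 over libraries, 5.81% of genes higher). At p1 it had −0.01 (−0.61 to 7.65, 78.0% higher), on a mean of 0.251 UMIs per well. The p1 value depended on depth, with 0.510 at 20000 UMIs (12.2% higher) and 0.777 without thinning (3.57% higher). Whether its spread differed between the ages is therefore not settled. At e15.5 *Cntn4* stood below *Cntnap4* at 10000 UMIs and above it at 20000 UMIs (1.07) and without thinning (1.25). At 10000 UMIs, *Cntn1* and *Cntnap2* were lower than the other members described at e15.5, though above the background median, and below that median at p1. *Cntn1* had 0.0880 at e15.5 and 0.0261 at p1, where 44.1% and 73.3% of genes were higher, and *Cntnap2* 0.120 and 0.0634 (37.8% and 65.7%). *Cntn2* had 0.228 and 0.175, and *Cntnap1* 0.351 and 0.223. With 20000 UMIs per well these were 0.211 and 0.0535 for *Cntn2* and 0.103 and 0.126 for *Cntnap1*. There *Cntnap1* stood below *Cntn1* (0.127) at e15.5. *Cntn3*, *Cntn5* and *Cntn6* had under 0.2 UMIs per well at 10000 UMIs and were not described there. At 20000 UMIs *Cntn5* had 0.694 at e15.5 and 2.22 at p1, on means of 0.459 and 0.381 UMIs per well, and its p1 value was above that of *Cntnap4*.

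Every proprioceptor had at least 1 UMI of *Cntn1*, *Cntn2* or *Cntnap2*. At e15.5, 22 of 332 wells lacked 1 or more of the 3, at a median depth of 19395.5 UMIs against 120412.5 for the others, and 10 of the 22 carried glial markers. At p1, 14 of 348 wells did, at 13441.5 against 59279.5 UMIs.

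**Figure D5:**
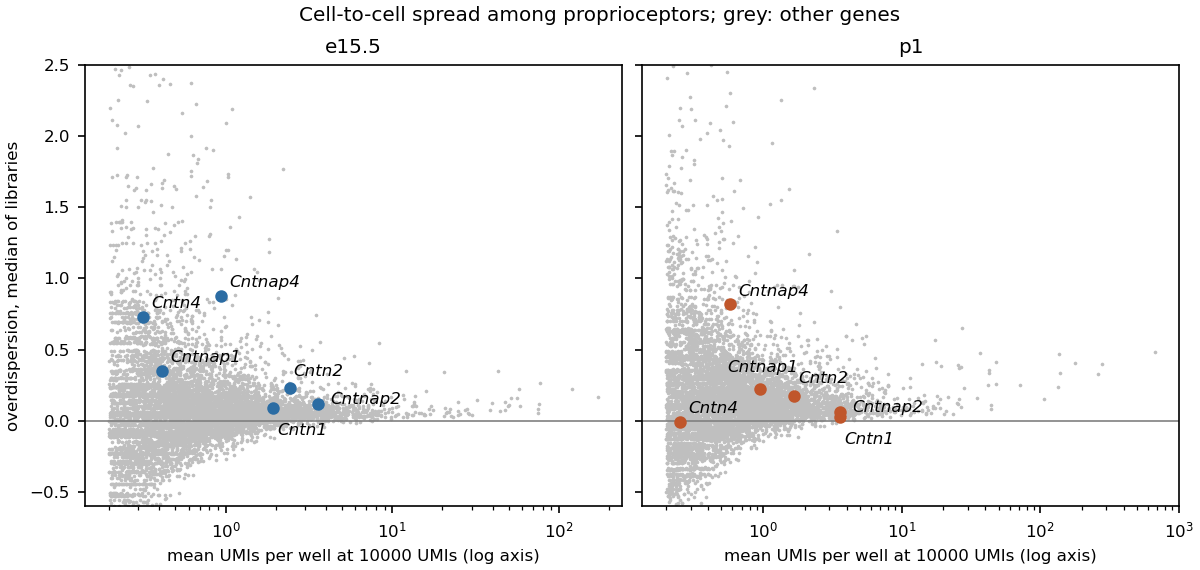
Overdispersion (median over libraries, limited to −0.6 to 2.5) against mean UMIs per well after thinning to 10000 UMIs (log axis), for members (colored, named) and all other genes with a mean of at least 0.2 (grey), at e15.5 (left) and p1 (right). *Cntnap4* lies high at both ages (0.880 and 0.821), and *Cntn1* (0.0880 and 0.0261) and *Cntnap2* (0.120 and 0.0634) lie lower.

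Members varied together weakly. Correlations were taken over wells within a library and given as the median over libraries. Wells of 1 library share a preparation but differ in depth and glial content, which the members follow in part. At e15.5 (301 wells of 7 libraries) *Cntn1* and *Cntn2* had the highest Pearson r of the 28 pairs of 8 members used, 0.62 (0.11 to 0.84). As Spearman's rho it was 0.40, below *Cntn5* with *Cntnap2* (0.43) and *Cntn2* with *Cntnap4* (0.41). The Pearson r of *Cntn1* and *Cntn2* was 0.25 in thinned wells, and 0.22 at p1 (337 wells of 5 libraries). *Cntn4* and *Cntnap4* were lowest at both ages, at −0.11 and −0.11. The median over pairs was 0.196 and 0.117, and 0.0553 and 0.0263 in thinned wells. *Cntnap1* followed depth most (r with log UMIs 0.546 at e15.5) and *Cntnap2* the glial sum (−0.369).

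For each member the genes of highest median r at e15.5 were as follows. *Cntn1* went with the neurotrophin receptor gene *Ntrk3* (0.744), *Adam11* (0.716) and *Clstn3* (0.711), and *Cntn2* with *Cacna1b* (0.655), *Pclo* (0.633) and *Adam11* (0.619). *Cntnap1* was closest to *Gm26871* (0.592), the sodium channel gene *Scn1a* (0.567) and the pacemaker channel gene *Hcn4* (0.562). *Cntnap2* was closest to *Enc1* (0.572), *Ncam1* (0.554) and *Tmem59l* (0.538). *Cntnap4* was closest to the calcium channel subunit gene *Cacna2d2* (0.587), *Mdga1* (0.577) and *Piezo2* (0.562), the channel of mechanosensation. *Cntn4* went with *Thsd7b* (0.638), *Grm3* (0.569) and *Vstm2b* (0.558), *Cntn5* with *Gm43879* (0.541), a feature inside *Cntnap2*, and *Cntn3* with *Gm42888* (0.429). In thinned wells the r of these named genes with their member was 0.0147 to 0.357 where it could be computed. At p1 the closest genes reached at most 0.503, and *Ntrk3* was again among the 3 closest to *Cntn1* (0.488). *Ntrk3* is also one of the markers by which proprioceptor wells were chosen.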

How the data were processed

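Both tables hold raw counts: scruff was used by the authors to assign reads to wells, map them and count UMIs, and no well or gene was filtered before the tables were deposited. The genome builds in the submitters' processing notes are GRCm38 and mm10, and no source used here names the annotation used for counting. Symbols and places are those of GENCODE M21, which named 49326 of 49671 IDs. No wells were identical.

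The family, the gene lists and the tests were chosen with earlier results of these data known. UMIs were summed per library (at least 5 proprioceptor wells by age, at least 3 by class or side) and tested with edgeR (version 4.0.16) in R (version 4.3.3): filterByExpr, TMM, quasi-likelihood F test, Benjamini-Hochberg over all genes, threshold 0.05. CPM levels use library totals. DESeq2 (version 1.42.0) was an alternative. On simulated counts with 200 genes changed 2-fold, 85.5% were recovered among 13665 genes for age, 57.5% and 50.5% among 13044 for mechanoreceptor-like and nociceptor-like neurons and 77.5% for non-neuronal wells. For the sides it was 77.5% of 10251 genes at e15.5 and 51.5% of 10702 at p1. Replicate numbers do not pair the ages (median r of deviations −0.0640, 1 of 6 pairs over 0.1). Class and side sums of 1 library come from 1 preparation (median r 0.0840 for classes, 0.154 and 0.183 for sides), and fits with the library as a block are quoted where a call changed. Overdispersion and correlations (on log2(CPM + 10), libraries with at least 15 proprioceptors) used SciPy (version 1.17.1), pandas (version 2.3.3) and NumPy (version 2.4.6) in Python (version 3.11.15), and plots Matplotlib (version 3.10.9).

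Members are described in full. Of the other lists, counts per direction and the 3 largest differences in each direction among those past the threshold are named, and for each member found in at least 20% of wells the 3 genes of highest median r, with fewer printed for *Cntn3*, *Cntn5* and the p1 wells. Some marker and partner genes are not reported here, and protein sequences were not used here. Alternatives were DESeq2 size factors, the DESeq2 test, no filter on low counts, wells with glial markers (500 CPM) left out, 20000 UMIs per well, the study's quality filters, more wells per sum, the replicate block and each library left out. Scaling by library totals and *Cntnap2* with its inner features were added after seeing the data.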

Additional observations from a re-analysis of the deposited data

Results flagged for a closer look

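In 81 groups of 4 to 10 libraries, 4 values stood apart from the rest of their group by Dixon's criterion, which chance alone gives for about 1 group in 20. Among nociceptor-like neurons, replicate 1 had the highest *Cntn4*, 39.3 CPM (4 libraries). Among non-neuronal wells, replicate 4 had the highest *Cntn1*, 44.1 CPM (10 libraries). On the e15.5 *Tox* side, replicate 4 had the lowest *Cntn1*, 123 CPM (10 libraries). On the e15.5 *Gabrg1* side, replicate 7 had the lowest *Cntnap2*, 212 CPM (4 libraries).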

How the results depend on the processing

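The age comparison called 1 member lower. This became 2 with library totals, 2 with no filter on low counts, 2 with 20000 UMIs per well and 0 with the replicate block, and 0 to 2 without 1 library. For age the block joins libraries that share a replicate number without being pairs, so its result does not bear on the call. Against mechanoreceptor-like neurons, 2 members were called higher and 3 lower. Higher calls were 1 without glial-marked wells, 1 with more wells per sum and 1 to 2 without 1 library, and lower calls 1 with no filter, 1 with the replicate block and 0 to 3 without 1 library. Against non-neuronal wells, 1 was called lower. This was 0 with library totals, no filter, the study's quality filters or without glial-marked wells, 2 with DESeq2 or the replicate block, and 0 to 2 without 1 library. For the e15.5 sides, 1 was called lower, with 0 without glial-marked wells, 0 with the replicate block and 0 to 2 without 1 library, where 160 to 612 genes were called in place of 342. For the p1 sides, no filter gave 1 member called higher and 1 lower. There 97 genes were called, with 463 under no filter, 63 at 20000 UMIs per well, 42 with the replicate block and 24 to 220 without 1 library. The interaction called 23 genes, with 40 by DESeq2, 77 under no filter, 57 without glial-marked wells, 13 with the quality filters, 36 with more wells per sum, 9 with the replicate block and 2 to 73 without 1 library. The median r over pairs at p1 moved from 0.117 to 0.0263 in thinned wells. The cause of these changes was not tested.

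The log2 differences that turned sign were not called, each given here with its value under the alternatives that turned it and, after "range", its lowest and highest value without 1 library. By age, *Cntn4* (−0.04) was 0.0031 with DESeq2, 0.0083 without glial-marked wells and 0.57 with the replicate block, which does not pair the ages (range −0.13 to 0.072). Against mechanoreceptor-like neurons, *Cntn1* (−0.10) was 0.18 with no filter and 0.068 with the replicate block (range −0.17 to 0.016), and *Cntn3* (−0.20) was 0.11 with no filter (range −0.34 to 0.20). Against nociceptor-like neurons, *Cntn3* (−0.12) was 0.22 with no filter (range −0.86 to 2.03) and *Cntn4* (0.31) was −0.12 without glial-marked wells. *Cntnap1* (0.0027) was −0.014 with DESeq2 size factors, −0.042 with library totals, −0.036 at 20000 UMIs, −0.14 with the quality filters and −0.28 with more wells per sum (range −0.18 to 0.31). The range was −0.088 to 0.75 for *Cntn5*, −2.01 to 0.20 for *Cntn6* and −0.015 to 0.51 for *Cntnap4*. For the e15.5 sides, *Cntn4* (0.036) was −0.043 with the quality filters (range −0.18 to 0.19), and with the replicate block *Cntnap2* (−0.21) was 0.050 and *Cntnap4* (0.082) was −0.052 (range −0.11 to 0.39). The range was −0.32 to 0.077 for *Cntn1*. For the p1 sides, *Cntnap1* (0.0087) was −0.0018 with no filter, −0.024 with the quality filters and −0.12 with more wells per sum (range −0.18 to 0.079). In the interaction, *Cntnap2* (0.0021) was −0.058 without glial-marked wells, −0.025 with the quality filters, −0.18 with more wells per sum and −0.23 with the replicate block (range −0.055 to 0.22), and *Cntn1* had a range of −0.26 to 0.12. Of all other results and settings, the DESeq2 size factors changed no member's call.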
